A study of Mus musculus with 2 samples.

Results

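The cells described here are those with the highest share of replication-dependent histone transcripts in a single-cell study of neural stem cells from the subventricular zone (SVZ), the germinal layer along the lateral ventricles of the mouse brain. They were chosen from measured values. Barcodes, each taken as 1 cell, were kept when they held at least 5000 unique molecular identifiers (UMIs, distinct captured transcripts) and at most 20% of UMIs from mitochondrial genes. Over the kept barcodes of both libraries, the percent of UMIs was computed for 3 gene sets. The E score used 7 genes of early S phase (Cdc6, Cdt1, Ung, Hells, Mcm4, Msh6 and Dtl), the H score 5 histone genes (Hist1h1b, Hist1h2ae, Hist1h2ap, Hist1h1a and Hist1h1d) and the M score 7 mitotic genes (Aspm, Prc1, Cenpf, Cenpe, Ube2c, Nusap1 and Plk1). A member had an H score in the top 12% and an H rank above its E and M ranks. This gave 802 histone-high cells among 7430 kept barcodes, of 9882 in all.

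The libraries came from C57BL/6 mice, aged 2 months for the young and 15 to 18 months for the aged group, with SVZ tissue of 5 mice pooled for each. Before loading, the dissociated cells were held in proliferation medium, and the values are those of cultured cells. There was 1 library per age, so the age of the mice, the culture and the library cannot be told apart, and no test between ages was possible. All intervals given are 95% intervals that cover counting error only, and differences are descriptions of these 2 libraries. The young library held 97774963 UMIs and the aged library 101666604. The limits kept 3766 of 5151 young barcodes (73.1%) and 3664 of 4731 aged barcodes (77.4%). The libraries had 4 barcode sequences in common, 2 of them kept and 0 among the histone-high cells. Cell type was given by the labels as neural stem cells. Among the histone-high cells the stem and progenitor gene Sox2 stood at 284 counts per 1000000 UMIs (CPM) in young and 321 CPM in aged members. The astrocyte filament gene Gfap was near 0 there, at 0.469 and 0.274 CPM, as was the neuroblast gene Dcx at 2.35 and 2.28 CPM. Other genes of their lists were expressed. The 18 astrocyte and quiescent stem cell genes summed to 1551 and 1770 CPM in members, and the 16 neuroblast and neuron genes to 285 and 318 CPM, most of it Meis2 at 167 and 193 CPM and Cd24a at 77.9 and 66.8 CPM.

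Replication-dependent histone genes encode the histones that package newly made DNA. They are switched on as cells enter S phase, when the kinase of cyclin E and Cdk2 acts on the coactivator Npat, and their mRNAs are destroyed when replication ends. Most of these mRNAs end in a conserved stem-loop bound by Slbp in place of a poly(A) tail, so libraries primed on poly(A), as here, capture the fraction that carries one. In the adult SVZ, activated stem cells and their progeny divide repeatedly while quiescent stem cells rest outside the cycle.

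The 802 cells comprised 404 young cells, or 10.7% of the kept young barcodes (exact Clopper-Pearson interval 9.76 to 11.8), and 398 aged cells, or 10.9% (9.87 to 11.9). The share over both libraries follows from the 12% limit, while the split between libraries does not. The lowest H score in the top 12% was 0.1916% of UMIs and the highest score below it 0.1913%, so the limit cut through a continuous range. Within 10% above that lowest score lay 125 members, and 156 barcodes lay within 10% below it. Of the 892 barcodes in the top 12%, 81 were not members because their E score ranked as high or higher and 9 because their M score did. Conversely, 92 members also had an E score in the top 12% and 22 an M score in the top 12%. Median H scores were 0.257% of UMIs in young and 0.265% in aged members, against 0.00542% and 0.00581% in all other kept barcodes.

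For comparison, the same rule applied to the E score gave an early S class of 798 barcodes, and applied to the M score a mitotic class of 870. The median E score of the histone-high cells was 0.0439% young and 0.0500% aged, below the 0.0914% and 0.0938% of the early S class and above the 0.0122% and 0.0123% of the mitotic class. Their median M score was 0.115% and 0.114%, against 0.0204% and 0.0205% in the early S class and 0.545% and 0.561% in the mitotic class. All 3 classes were chosen on these scores, so the lower E score than in the early S class and the lower M score than in the mitotic class follow from the choice and give no support to a label of mid S phase. Time within S phase was not measured. The median depth was 26512 UMIs in young and 27763.5 UMIs in aged members, above the 23574 and 24452 of the early S class and below the 31911.5 and 34304.5 of the mitotic class. No doublet caller was run. Among the 5% deepest barcodes, where doublets would be sought first, were 6 of 404 young and 2 of 398 aged members.

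**Figure D1:**
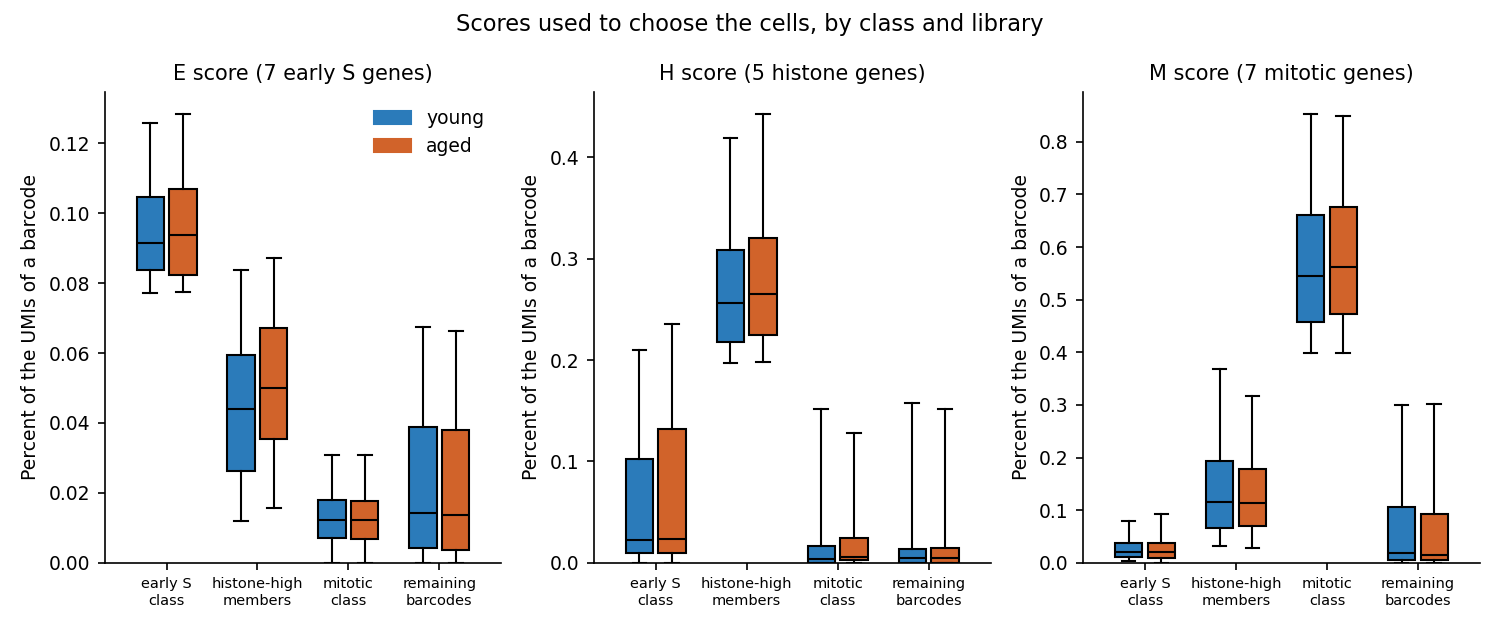
Percent of a barcode's UMIs in the 3 gene sets that chose the cells, for 4 cell sets in the young (blue) and aged (orange) library. Boxes span the middle quartiles with the median as a line and whiskers run from the 5th to the 95th percentile of barcodes. Each of the 3 classes has the highest values of the score that chose it, by selection.

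The H score was made up mainly of linker histone H1 transcripts. Values of the 5 genes that chose the cells are given as a description, as CPM of UMIs summed over the members of a library. Hist1h1b (chr13:21779883-21780625, minus strand, GRCm38), which encodes linker histone H1.5, stood at 1735 CPM in young members (Poisson interval 1710 to 1760) and 1654 CPM in aged members (1630 to 1679). It supplied 64.1% and 59.4% of the H score's UMIs, so this gene weighed most in the choice of cells. The H2A gene Hist1h2ae followed at 425 and 415 CPM, and the H2A gene Hist1h2ap at 332 and 532 CPM. The linker histone genes Hist1h1a and Hist1h1d were lower, at 109 and 111 CPM and at 107 and 73.5 CPM. H2A genes have near-identical coding copies, so the division of reads among them is uncertain.

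The promoters of the 5 linker histone genes show a common layout. Of these genes, 3 were in the rule (Hist1h1a, Hist1h1b and Hist1h1d) and 2 outside it (Hist1h1c and Hist1h1e) were high in the same cells, so their promoters are printed for comparison. Each window runs from 250 bases before to 50 bases after the start given by RefSeq for GRCm38.p6. Capitals mark CCAAT, the TATA motif TATAAA and the H1 box AAACACA, a motif of H1 promoters, on either strand, so that ATTGG and TTTATA are reverse-strand matches.
Hist1h1b, chr13:21780576-21780875, minus strand: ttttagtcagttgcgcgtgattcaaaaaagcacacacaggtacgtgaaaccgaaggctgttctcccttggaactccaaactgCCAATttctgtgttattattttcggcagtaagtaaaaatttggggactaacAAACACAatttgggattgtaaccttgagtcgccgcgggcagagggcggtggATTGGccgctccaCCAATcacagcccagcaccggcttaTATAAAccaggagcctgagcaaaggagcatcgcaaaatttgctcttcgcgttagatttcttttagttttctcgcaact
Hist1h1e, chr13:23622509-23622808, minus strand: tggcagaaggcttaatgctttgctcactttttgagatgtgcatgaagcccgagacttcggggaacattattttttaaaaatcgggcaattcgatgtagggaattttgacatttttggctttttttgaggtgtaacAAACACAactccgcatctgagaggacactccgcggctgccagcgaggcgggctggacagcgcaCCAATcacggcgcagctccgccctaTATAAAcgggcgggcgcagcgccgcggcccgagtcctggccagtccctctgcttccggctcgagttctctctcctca
Hist1h1c, chr13:23738557-23738856, plus strand: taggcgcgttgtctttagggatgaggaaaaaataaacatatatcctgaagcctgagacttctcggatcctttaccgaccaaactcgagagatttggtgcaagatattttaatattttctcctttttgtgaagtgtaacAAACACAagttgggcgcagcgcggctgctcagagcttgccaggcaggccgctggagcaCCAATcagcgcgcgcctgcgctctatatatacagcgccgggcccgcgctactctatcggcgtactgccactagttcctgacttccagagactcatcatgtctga
Hist1h1a, chr13:23763418-23763717, plus strand: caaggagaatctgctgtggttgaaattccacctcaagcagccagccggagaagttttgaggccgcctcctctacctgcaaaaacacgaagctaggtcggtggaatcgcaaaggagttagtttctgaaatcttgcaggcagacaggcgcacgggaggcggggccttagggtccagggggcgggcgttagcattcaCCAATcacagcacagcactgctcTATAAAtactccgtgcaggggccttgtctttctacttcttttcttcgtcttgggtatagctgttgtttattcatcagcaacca
Hist1h1d, chr13:23554782-23555081, plus strand: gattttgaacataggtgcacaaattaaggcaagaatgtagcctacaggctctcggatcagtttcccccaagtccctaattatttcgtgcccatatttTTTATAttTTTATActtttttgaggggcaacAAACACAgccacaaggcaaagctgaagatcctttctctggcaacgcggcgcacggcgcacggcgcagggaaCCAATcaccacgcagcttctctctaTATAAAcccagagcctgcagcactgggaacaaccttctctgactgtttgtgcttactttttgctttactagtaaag
Counting from 1 at the 5′ end of the window, a forward CCAAT began between bases 195 and 200 in each of the 5 promoters. TATAAA began between bases 218 and 225 in 4 of them, with no such letters in Hist1h1c. AAACACA began between bases 129 and 139 in 4, with no such letters in Hist1h1a. Over the 30 named histone promoters found in the table, of 33 histone genes looked up, 28 (93.3%) held CCAAT, against 37.4% of all 32851 promoters of that length. TATAAA was in 18 of the 30 (60%), against 13.6% of all. The H1 box was in 6 (20%), 4 of them H1 genes, against 7.18%. The octamer ATTTGCAT, an element known from H2B promoters, was in 9 (30%), namely 5 of 10 H2A and 4 of 7 H2B promoters, against 1.74%. A match describes letters in the window and no binding was measured.

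Histone genes outside the rule were also high in the chosen cells. Summed over them, the level was 2294 CPM in young and 2256 CPM in aged members, against 609.5 and 523 CPM in all other kept barcodes, which is 3.76 and 4.32 times as much. The early S class had 728 and 725 CPM and the mitotic class 540.3 and 483 CPM. Of 64 such genes found in the matrices, 5 had no UMI in any member and 52 reached 1 CPM in the members or the other barcodes of a library. Of those 52, 49 were higher and 3 lower in members in both libraries, and 38 were at least 2-fold higher in both. The 3 lower genes were Hist1h2bc, Hist3h2a and Hist2h2be, the last close to the 1 CPM floor. At a floor of 10 CPM, 24 of 28 histone genes outside the rule were at least 2-fold higher in both, against 1.31% of all 8599 genes at that floor. Over the 52 genes, the median log2 ratio of CPM plus 1, members over others, was 1.66 young and 1.63 aged. Over the 28 genes of at least 10 CPM it was 2.27 and 2.29, against -0.0083 and -0.0010 over all 8599 genes at that floor. The rule used the same cells and genes of the same family, so these values describe the cells and are not a test. Transcripts detected in members alone can pass such a floor through the members, and 13 of the 28 genes at 10 CPM or more also reached 10 CPM in the other barcodes.

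By histone class, the highest levels again came from linker histones. Hist1h1e, which encodes linker histone H1.4, stood at 766 CPM in young and 768 CPM in aged members. In the other barcodes it was at 150.5 and 147 CPM, in the early S class at 226 and 225 CPM and in the mitotic class at 114 and 104 CPM. Hist1h1c, the gene of linker histone H1.2, was at 149 and 149.5 CPM in members against 44.1 and 38.1 CPM in the others. In both genes the members were well above each other cell set of either library. For the core histones, the H4 gene Hist1h4d was at 205 and 204 CPM against 45.2 and 45.9 CPM, and the H3 gene Hist1h3c at 138 and 140.5 CPM against 26.3 and 22.6 CPM. The H2A gene Hist1h2ab was at 125 and 133 CPM against 19.8 and 19.4 CPM, and the H2B gene Hist1h2bj at 61.9 and 65.0 CPM against 10.2 and 10.1 CPM. Each core histone class therefore had members several times above the other barcodes. At 10 CPM or more, 6 of 6 H3 genes, 7 of 8 H2A genes, 6 of 8 H2B genes, 3 of 4 H4 genes and 2 of 2 H1 genes were at least 2-fold higher in both libraries.

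**Figure D2:**
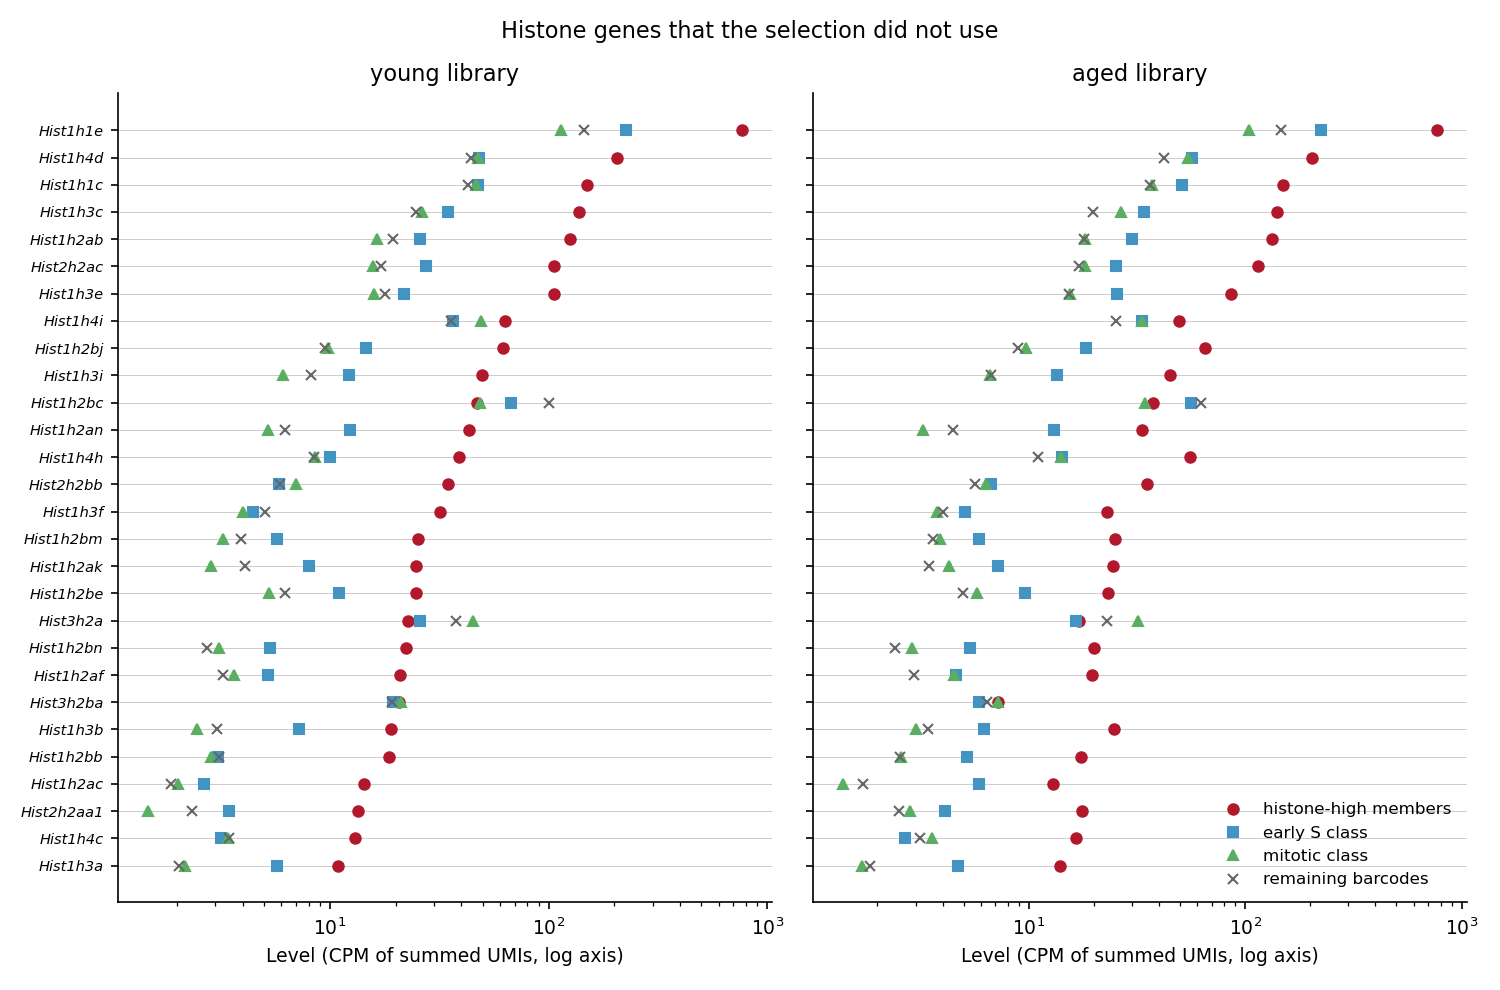
Level of the 28 replication-dependent histone genes outside the rule with at least 10 CPM, in CPM of summed UMIs on a log axis, for the young library (left) and the aged library (right). Each symbol is 1 cell set of 1 library, and the red points of the histone-high cells lie to the right of the other sets except for Hist1h2bc, Hist3h2a and Hist3h2ba.

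Of these 28 genes, 4 were not 2-fold higher, and 3 of them lay apart from the rest of the family. The H2B gene Hist1h2bc was lower in members, at 47.0 and 37.6 CPM against 88.8 and 57.0 CPM in the others. The H2A gene Hist3h2a was lower too, at 22.8 and 17.1 CPM against 37.5 and 23.9 CPM. Hist3h2ba, an H2B gene, was nearly level at 20.7 and 7.21 CPM against 19.6 and 6.52 CPM. The remaining gene, the H4 gene Hist1h4i, was higher by less than 2-fold, at 63.2 and 49.7 CPM against 38.0 and 27.6 CPM. By position, the 2 genes on chromosome 11, Hist3h2ba (chr11:58948920-58949533) and Hist3h2a (chr11:58954685-58956830), were both among the genes not 2-fold higher. In the large cluster on chromosome 13, 20 of 22 were at least 2-fold higher, as were 3 of 3 in the cluster on chromosome 3. These counts leave out Hist1h2bm, which had no position in the gene annotation used here and was at least 2-fold higher too. Its RefSeq promoter lies on chromosome 13.

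The histone-high cells also varied among themselves in the genes outside the rule. The summed level of those genes per barcode had a median of 2188 CPM in young members, with the 5th and 95th percentiles at 1420.3 and 3811 CPM, and a median of 2166 CPM in aged members, from 1253 to 3539 CPM. These ranges reach down into the upper tails of the other sets, where the 95th percentile was 1996 CPM in young and 2032 CPM in aged early S barcodes. Across members, the H score and the summed level of the outside genes correlated with Pearson r = 0.54 (Spearman rho = 0.41) over 404 young and r = 0.48 (rho = 0.46) over 398 aged cells. Both measures come from the same library and share a cell's depth, and log depth correlated with the outside genes at r = -0.33 and r = -0.19.

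At the 3′ end, 17 of the 32 named histone genes with an annotated coding transcript carry 1 of 2 forms of the stem-loop letters in GENCODE vM21 transcripts. The first is found in 14 genes, among them Hist1h1e, Hist1h1d and Hist1h2ap, and the second in 3 H4 genes (Hist1h4c, Hist1h4d and Hist1h4h). Capitals mark the stem and loop, with the stem bases at both ends of each run.
H1, H2A, H2B and H3 form: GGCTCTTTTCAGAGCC
H4 form: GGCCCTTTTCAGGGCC
The search allowed any base at the 2 positions where these forms differ. Over all 21901 genes with a coding transcript, 35 matched that pattern (0.160%), and 33 of the 35 are named as histone genes. The annotated transcript runs on for 3 bases after the loop in Hist1h2ap and 4884 in Hist1h1d, so some models include a longer form of the mRNA and others end at the loop. A gene without these exact letters in its annotated transcripts, such as Hist1h1b, was not shown to lack a stem-loop. The 3 genes apart from the family include 2 with the letters, Hist3h2ba and Hist3h2a. Which form of the mRNA was captured was not measured.

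Genes that make or process histone mRNA were partly high. Slbp, whose protein binds the stem-loop, was at 175 CPM in young and 191 CPM in aged members, against 81.5 and 76.7 CPM in the other barcodes. Its level in the early S class was nearly as high, at 159 and 163 CPM, and it was lowest in the mitotic class at 48.3 and 42.9 CPM. The coactivator Npat was at 32.1 and 36.8 CPM against 23.6 and 23.6 CPM, and Casp8ap2, a factor needed for histone gene expression, was higher in the early S class (133 and 142 CPM) than in members (87.1 and 99.3 CPM). Slbp alone of the 13 compared genes of this list was 2-fold higher in both libraries, as were 1.31% of all 8599 genes. By any amount, 11 of the 13 were higher in both. For counts of genes higher or lower by any amount, here and elsewhere, no share over all genes is given. As a comparison, of 26 genes of RNA polymerase II and its general factors, 15 were higher and 3 lower in both libraries. Among chromatin assembly factors, 4 of 20 were at least 2-fold higher. Asf1b, a chaperone that hands over new H3 and H4, was at 57.4 and 52.4 CPM, which is 2.62 and 2.76 times its level in the others, and Chaf1b, a subunit of the assembly factor CAF-1, at 115 and 104 CPM against 48.1 and 36.7 CPM.

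Replacement histones, most of whose mRNAs are polyadenylated and not tied to S phase, differed less. Of 11 such genes, 9 were higher in both libraries and 1, H1f0, was at least 2-fold higher. H1f0, the replacement linker histone H1.0, was at 162 and 139.8 CPM against 77.4 and 67.3 CPM, and H3f3b, which encodes H3.3, at 1724 and 1717 CPM against 1199 and 1202 CPM. The centromeric H3 gene Cenpa went the other way, at 127 and 117 CPM in members, 251 and 257 CPM in the others and 678 and 691 CPM in the mitotic class.

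Beyond the histone family, the histone-high cells carried high transcripts of the replication and repair machinery. With the 19 genes of the 3 scores set aside, 113 of 8599 genes of at least 10 CPM were 2-fold or more higher in members than in all other kept barcodes in both libraries (1.31%), and 50 were as much lower (0.581%). Of the 113, 24 were histone genes. With a mitochondrial limit of 10% in place of 20%, the counts were 54 and 17, and the members were then chosen anew over fewer barcodes. Against the barcodes in none of the 3 classes, an alternative added after the values were seen, they were 244 and 82.

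Among genes of the replication fork, 16 of 30 were at least 2-fold higher and 30 of 30 higher in both libraries, with a median log2 ratio of 1.004 young and 1.14 aged. Pcna, the sliding clamp of DNA polymerase, was at 362 and 347 CPM against 167 and 149 CPM, and Lig1, the ligase that seals Okazaki fragments, at 229 and 272 CPM against 92.6 and 99.9 CPM. Clspn, which links stalled forks to the checkpoint kinase Chek1, was at 206 and 219 CPM against 76.9 and 75.1 CPM. Among licensing and firing genes outside the rule, 7 of 20 were at least 2-fold higher and 20 of 20 higher. Cdc45, part of the replicative helicase, stood at 76.6 and 68.2 CPM against 28.0 and 23.6 CPM, and Gmnn, the inhibitor of relicensing, at 157 and 154 CPM against 62.4 and 58.1 CPM. Fork and licensing genes thus lay above the others throughout both lists. The list of 26 genes of RNA polymerase II and its general factors had 0 at 2-fold, 15 higher and 3 lower in both libraries, and medians of 0.10 and 0.09.

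Genes of homologous recombination and nucleotide supply were high as well. In the first list, 9 of 16 genes were at least 2-fold higher and 16 of 16 higher. Brca1 was at 62.4 and 67.4 CPM against 22.1 and 21.2 CPM, and the helicase gene Brip1 at 41.2 and 47.3 CPM against 13.5 and 13.4 CPM. In the second, 5 of 18 were at least 2-fold and 18 of 18 higher. Rrm2, the small subunit of ribonucleotide reductase, stood at 441 and 461 CPM against 165 and 174 CPM, and thymidine kinase Tk1 at 172 and 177 CPM against 68.1 and 61.8 CPM. Of E2F factors and G1/S regulators, 8 of 19 were at least 2-fold higher, among them the repressor gene E2f7 at 33.5 and 35.4 CPM against 10.2 and 9.95 CPM. The D-type cyclin gene Ccnd2 was lower, at 1062 and 772 CPM against 1572 and 1207 CPM.

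Outside the histones, the gene that stood highest in members over the others was Esco2, the acetyltransferase that locks sister chromatids together during replication. It was at 151 CPM in young and 152 CPM in aged members, 49.2 and 47.5 CPM in the early S class, 75.04 and 75.04 CPM in the mitotic class and 30.3 and 29.9 CPM in the barcodes of no class. Its level in members was therefore above that in each other cell set of both libraries. Among genes of at least 50 CPM, Atad2, a chromatin ATPase gene, came next at 239 and 255 CPM against 79.5 and 73.8 CPM. A further count, chosen after the values were seen, took genes at least 1.5-fold above both the early S and the mitotic class in both libraries. It held 33 of 8768 genes (0.376%), of which 24 were histone genes. Named among the rest were Esco2, Rrm2, Tk1, the clamp loader gene Chtf18, the centromere gene Cenph, the transcription factor gene Zfp143, Mlf1 and the stress-induced cytokine gene Gdf15. Gdf15 was at 55.3 and 45.8 CPM in members and 50.04 and 37.5 CPM in the barcodes of no class, so it was not above all sets by that much.

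Many replication genes were as high in the early S class as in the histone-high cells. Ccne1, a cyclin of S phase entry, was at 72.8 and 65.4 CPM in members and 73.2 and 53.6 CPM in the early S class, with 7.75 and 8.54 CPM in the mitotic class. Ccne2 was at 57.4 and 58.4 CPM in members, 61.4 and 59.9 CPM in the early S class and 3.49 and 3.27 CPM in the mitotic class. Over the licensing list, the median log2 ratio of members over the early S class was 0.0091 young and 0.09 aged, against 1.01 and 1.06 over the mitotic class. Genes that act later in the cycle had the opposite order. Top2a, the topoisomerase that untangles sister DNA, stood at 855 and 899.7 CPM in members, between 257 and 263 CPM in early S and 1410.3 and 1499 CPM in mitotic barcodes. The proliferation marker Mki67 lay between them likewise, at 771 and 771 CPM, as did cyclin A2 (Ccna2) at 139 and 148 CPM. For 37 G2/M genes outside the rule, the median log2 ratio was 1.41 and 1.54 over the early S class and -1.33 and -1.32 over the mitotic class. Cyclin B1 (Ccnb1) was at 139 and 119 CPM in members and 624 and 612 CPM in mitotic barcodes.

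The histone-high cells were not uniform along this order. Split by which of their other scores ranked higher, 215 of 404 young members (53.2%, interval 48.2 to 58.2) leaned to E and 189 (46.8%) to M. Among aged members 239 of 398 (60.1%, 55.1 to 64.9) leaned to E and 159 (39.9%) to M. The intervals of the 2 E-leaning shares overlap, but overlap does not show that the shares are alike. With 1 library per age, their difference was not tested. Outside the score genes, 14 of 8571 genes (0.163%) were at least 2-fold higher in M-leaning than E-leaning members in both libraries, and 1 (0.0117%) was as much lower. The 1 lower gene was Ccne2, at 77.9 and 75.2 CPM in E-leaning and 35.0 and 33.2 CPM in M-leaning members. The split uses the E and M scores of the same cells, so it is a description.

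Of 37 G2/M genes outside the rule, 4 were among the 14 genes higher in M-leaning members, namely Aurka, Ccnb1, Gas2l3 and Spc25. The centromere histone gene Cenpa, also among the 14, was at 62.1 and 61.7 CPM in E-leaning and 198 and 199 CPM in M-leaning members, and the mitotic kinase gene Aurka at 28.4 and 24.96 against 70.3 and 66.9 CPM. Spc25, part of the kinetochore complex that holds microtubules, was at 71.6 and 76.7 against 156 and 169.6 CPM, and the mitotic kinesin gene Kif14 at 10.4 and 10.4 against 27.4 and 28.0 CPM. These genes were named for their difference after it was seen. The cohesion gene Esco2 was also higher in M-leaning members, at 171 and 181 CPM against 132 and 132 CPM, whereas Slbp was higher in E-leaning ones, at 202 and 208 CPM against 146 and 165 CPM. H scores were alike in both subsets, with medians of 0.258% and 0.268% in E-leaning and 0.256% and 0.262% in M-leaning members. The summed histone genes outside the rule had medians of 2108 and 2045 CPM per barcode in E-leaning and 2398 and 2397 CPM in M-leaning members.

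**Figure D3:**
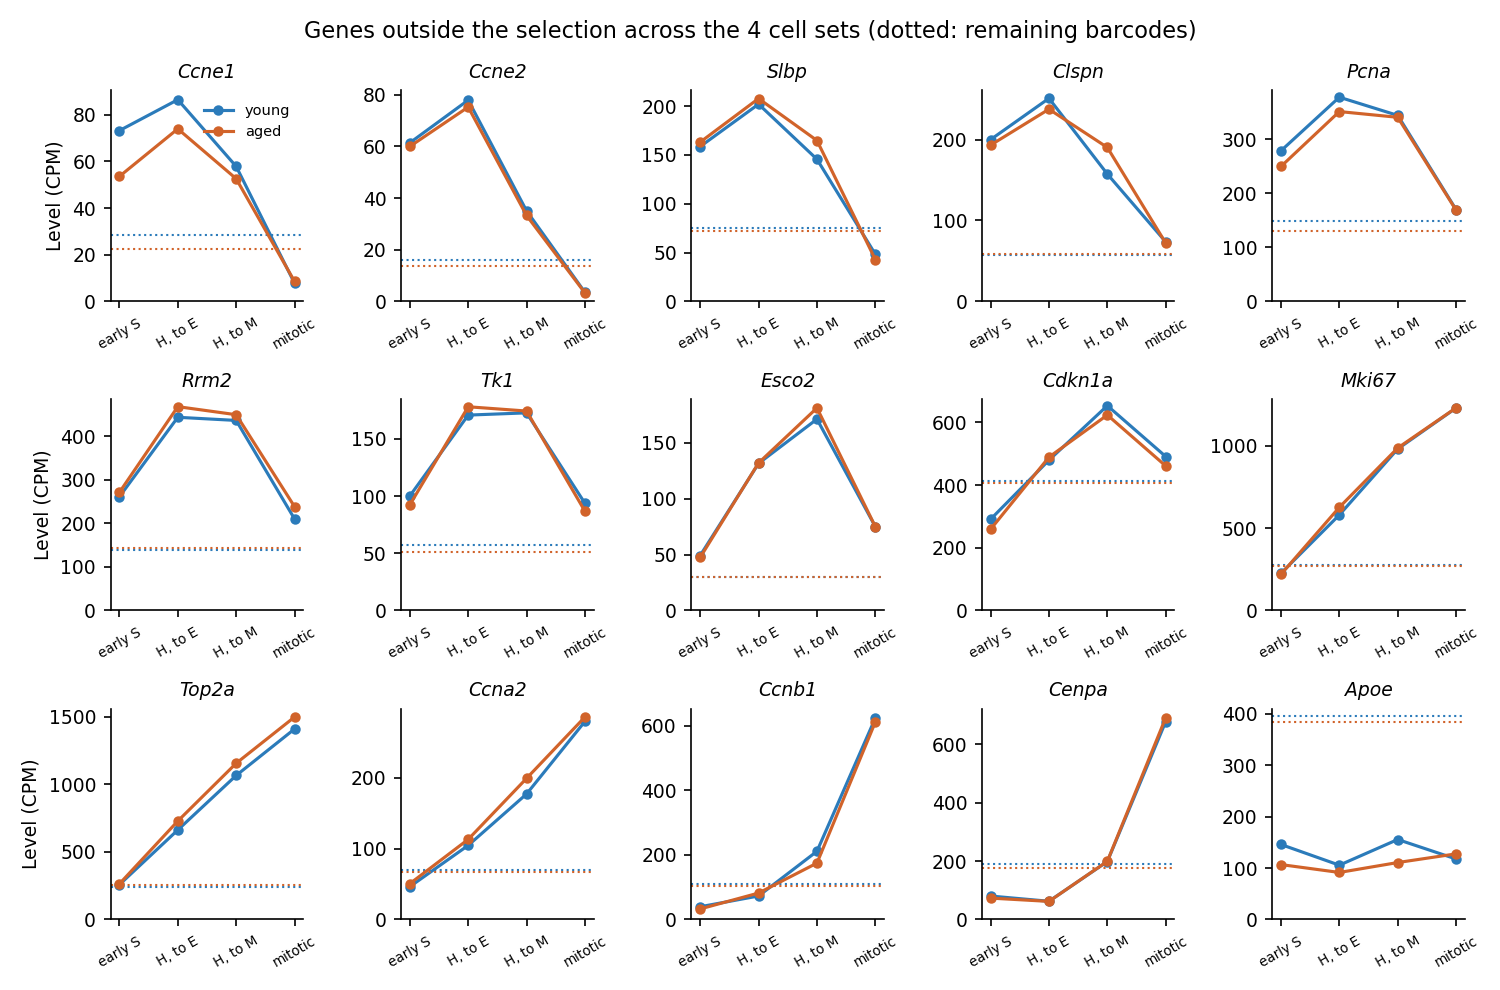
Level, in CPM of summed UMIs, of 15 genes outside the rule in the early S class, the E-leaning and M-leaning histone-high cells and the mitotic class, joined by lines for the young (blue) and aged (orange) library, with dotted lines for barcodes of no class. Clspn, Ccne2 and Slbp are highest in E-leaning members, Esco2 and Cdkn1a in M-leaning members, and Top2a, Mki67, Ccnb1 and Cenpa in the mitotic class.

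The cell cycle inhibitor gene Cdkn1a was not low in the histone-high cells. It stood at 563 CPM in young and 543 CPM in aged members, against 291 and 259 CPM in the early S class, 491 and 461 CPM in the mitotic class and 413 and 407 CPM in barcodes of no class. Members were thus the highest of the 4 sets in both libraries. By contrast, Cdkn2b, which encodes the inhibitor of Cdk4 and Cdk6 known as p15, was at 8.17 and 4.65 CPM against 28.7 and 27.0 CPM in the others, and Mxd4, a Max-binding repressor of the Myc network, at 35.7 and 40.8 CPM against 102 and 96.2 CPM. Cdkn2b was also low in the early S (11.0 and 7.96 CPM) and mitotic class (15.1 and 16.2 CPM). Likewise, Mxd4 was at 61.2 and 58.4 CPM in early S and 45.7 and 52.7 CPM in mitotic barcodes. Of 13 compared p53 target genes, 0 passed 2-fold in either direction in both libraries. Over all 8599 genes 1.31% were as much higher and 0.581% as much lower, so this count is near the share over all genes.

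Genes lower in members included several of astrocytes and quiescent stem cells. Of the 12 compared genes of that list, 12 were lower in both libraries and 3 by at least 2-fold, with median log2 ratios of -0.44 young and -0.43 aged. The lipid carrier gene Apoe was at 129 and 99.1 CPM against 322 and 308 CPM, and the gap junction gene Gja1 at 4.50 and 5.29 CPM against 23.2 and 22.6 CPM. Apoe was about as low in the early S class (146 and 107 CPM) and the mitotic class (118 and 128 CPM), so a low level of Apoe was common to the 3 cycling sets. Gja1 differed from this. It was at 9.70 and 6.13 CPM in the early S class and 25.3 and 27.0 CPM in the mitotic class. Barcodes of no class had 24.9 and 23.9 CPM of Gja1. Other low genes were Pdlim4, an adaptor of the actin cytoskeleton, at 16.5 and 14.0 CPM against 53.8 and 57.5 CPM, Btbd17 at 37.7 and 33.0 CPM against 95.5 and 77.7 CPM, and the bicarbonate transporter gene Slc4a4 at 64.4 and 55.6 CPM against 131 and 117 CPM. Slc4a4 was also low in the early S class (75.7 and 55.3 CPM) and the mitotic class (81.1 and 68.0 CPM). The summed level of the 18 astrocyte and quiescent genes had a median of 1402 CPM per young member (5th to 95th percentile 745 to 2776) and 1527 CPM per aged member (826 to 3044), against 1826 and 2056 CPM in barcodes of no class. Median mitochondrial shares were 8.57% and 8.59% in members and 9.82% and 9.74% in barcodes of no class, and their part in these differences was not tested.

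Markers of microglia, vessels and ependyma were low. Microglia and immune genes summed to 1.13 and 0.365 CPM in members, with 9 and 8 of the 10 genes at 0. Endothelial and pericyte genes summed to 2.35 and 1.55 CPM, with 5 and 6 of 10 at 0, and ependymal genes to 6.66 and 7.02 CPM, with 3 and 3 of 8 at 0. Oligodendrocyte lineage genes were present at similar levels in members and others, for example Olig2 at 484 and 411 CPM against 519 and 429 CPM. None of 6 compared genes of that list and none of 5 of the neuroblast list passed 2-fold. Over all 8599 genes 1.31% were 2-fold higher and 0.581% lower in both libraries, so these counts are near the share over all genes.

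By list medians, replication transcripts outside the rule had nearly the same level in aged and young histone-high cells. The summed histone genes outside the rule had an aged over young ratio of 0.984 (0.966 to 1.001). Members of both libraries passed the same pooled H score limit, so similar histone levels by age follow in part from the choice. In the other barcodes these genes summed to 609.5 CPM young and 523 CPM aged. Median log2 ratios of aged over young members were -0.0012 over the fork genes, -0.0074 over the licensing genes and 0.04 over the recombination genes, against 0.02 over all genes. In the other barcodes the medians over these lists were -0.11, -0.08 and -0.02. The 7 E score genes, part of the rule, summed to 441 CPM in young and 509 CPM in aged members. All 7 were higher in aged members, with a median log2 ratio of 0.26, against -0.09 in the other barcodes. Single fork genes also differed, such as Pole at a ratio of 1.27 (1.12 to 1.45) and Lig1 at 1.19 (1.12 to 1.25). Of the 30 fork genes, 14 were higher and 16 lower in aged members. Of 8336 genes of at least 10 CPM, 19 were at least 2-fold higher in aged members (0.228%) and 20 as much lower (0.24%). None of the 30 fork, 20 licensing, 16 recombination, 18 nucleotide or 20 chaperone genes compared was among them. Over all genes 0.468% passed 2-fold either way, so this count is near the share over all genes. Hist3h2ba was the 1 replication-dependent histone gene past 2-fold, at 7.21 CPM aged and 20.7 CPM young. Its log2 ratio of -1.41 was close to the -1.46 in the other barcodes.

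Of the 5 score genes, 2 had aged over young ratios well away from 1, in opposite directions. Hist1h2ap was 1.60-fold higher in aged members (1.53 to 1.67), at 532 against 332 CPM. The same ratio was 1.85 in the early S class, 1.49 in the mitotic class and 1.43 in barcodes of no class, so it was higher in the aged library in each set. Hist1h1d was lower, with aged over young ratios of 0.688 (0.628 to 0.754) in members, 0.752 in early S, 0.726 in mitotic and 0.733 in remaining barcodes. Hist1h1b, Hist1h2ae and Hist1h1a had ratios of 0.954, 0.976 and 1.01 in members. Because these genes chose the cells, the values are a description, and the shared coding sequence of H2A copies leaves the assignment of Hist1h2ap reads uncertain.

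Among genes of at least 50 CPM other than histone genes, those farthest apart by age in the histone-high cells came from outside the replication lists. Wdfy1, which encodes an endosomal lipid-binding protein, was at 51.4 CPM in aged and 9.20 CPM in young members, a ratio of 5.58 (4.50 to 6.99). The transcription factor gene Mef2c was at 107 against 38.9 CPM, a ratio of 2.75 (2.46 to 3.08), and the potassium channel gene Kcnd2 at 62.9 against 28.2 CPM, a ratio of 2.23 (1.94 to 2.56). Lower in aged members were Anxa3, an annexin gene, at 23.4 against 78.0 CPM, and Chl1, a neural adhesion gene, at 23.0 against 60.8 CPM. The matrix protein gene Sparc was at 24.9 against 54.8 CPM, and Kitl, which encodes the ligand of the receptor Kit, at 33.1 against 63.4 CPM. These genes also differed in the other barcodes. Of the 39 genes past 2-fold in members (0.468%), 39 had the same direction in all other kept barcodes and 27 were past 2-fold there, where 38 of 8343 genes passed (0.455%). Over all kept barcodes together 39 of 8339 genes passed (0.468%). Members and others share no cells, but they come from the same libraries.

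**Figure D4:**
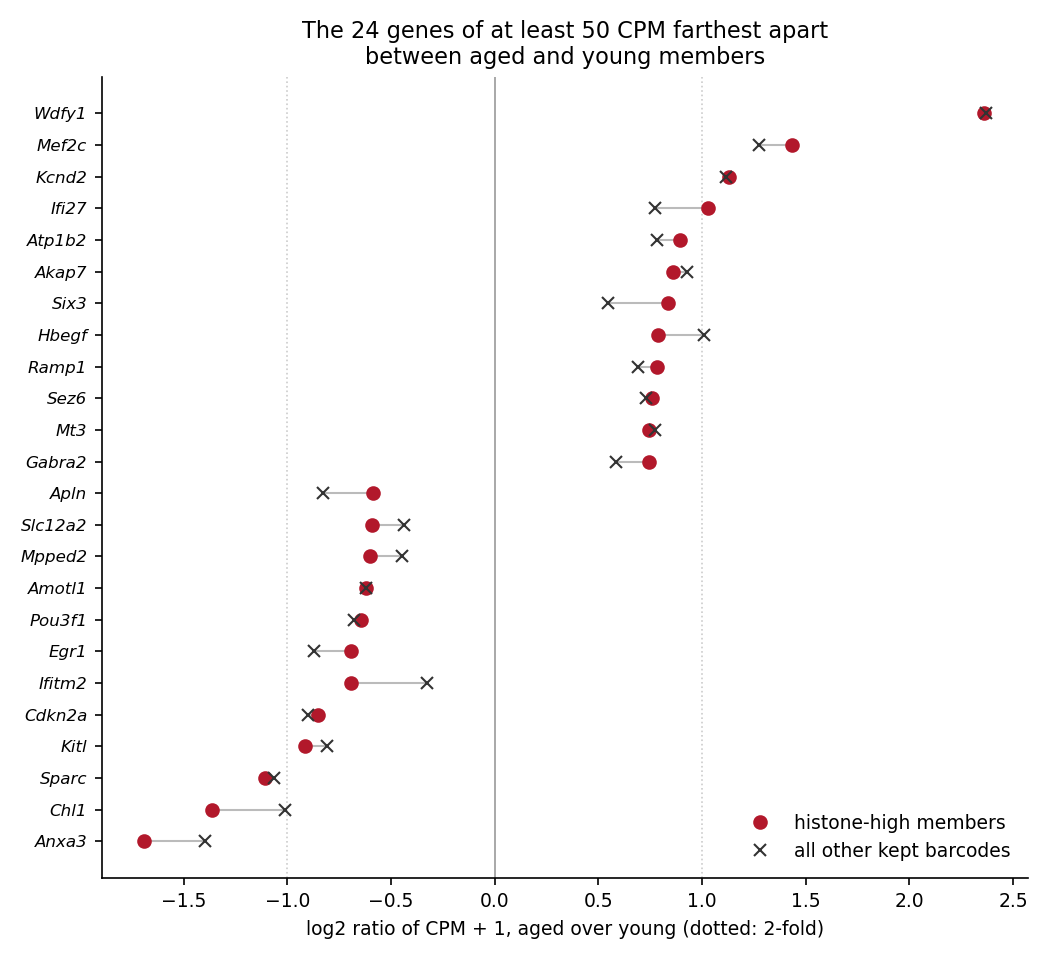
The log2 ratio of CPM plus 1, aged over young, of the 12 genes highest and the 12 lowest by that ratio in histone-high cells among genes of at least 50 CPM, in members (red points) and in all other kept barcodes (crosses). Crosses lie on the same side of 0 as the points for each of the 24 genes, from Wdfy1 at 2.36 and 2.37 to Anxa3 at -1.69 and -1.40.

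Few immediate early genes or p53 targets passed 2-fold by age. Of 10 compared immediate early genes, 1 was at least 2-fold lower in aged members, where 0.24% of all genes were. Their median log2 ratio was -0.50, with 9 of 10 below 0. Egr1, a growth factor-induced transcription factor gene, was at 184 CPM aged and 298 CPM young, Fos at 27.4 and 49.3 CPM and Ier3 at 15.1 and 40.4 CPM. Of 12 compared p53 targets 0 passed 2-fold, where 0.468% of all genes did either way. Their median log2 ratio was -0.26, with 11 of 12 below 0, among them Ccng1 at 119.6 against 162 CPM and Plk2 at 75.6 against 104 CPM. In the other barcodes the medians over these lists were -0.75 and -0.24. Cdkn2a, which encodes the inhibitors p16 and Arf, was at 103 against 186 CPM in members and 117 against 219 CPM in the others. Pttg1, which encodes securin, was at 19.2 CPM in aged and 43.8 CPM in young members, and at 33.3 against 185 CPM in the mitotic class.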

How the data were processed

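Gene expression was measured in 2 droplet libraries made with the 10x Genomics 3′ chemistry, which primes on poly(A), per the labels' protocols. As deposited, the values are UMI counts for each gene in each barcode, with no scaling, which the authors made with Cell Ranger 3.0.2 on mm10, per the submitters' processing notes. Which gene annotation they counted on was not given in the sources used here. The members, gene lists and rules were chosen with earlier results of these data known.

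The deposited counts were summed over the barcodes of each cell set and library and scaled to CPM. Genes of at least 10 CPM in either set were compared on the scale of log2(CPM + 1), as differences, and called by size at 2-fold, in both libraries where sets were compared. Shares have exact Clopper-Pearson, levels exact Poisson and ratios exact conditional binomial intervals. With 1 library per age no p-value was computed. The kept libraries held 94530679 young and 99206061 aged UMIs, of which 10654915 and 10962167 were in members. No doublets were removed. The scripts were tested on simulated data and used Python 3.11.15, numpy 2.4.6, scipy 1.17.1, pandas 2.3.3 and matplotlib 3.10.9.

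Genes named were the 19 score genes, the histone genes outside the rule of at least 10 CPM in members, up to 4 of each list with the largest ratios for either comparison, the 12 highest and 12 lowest of each comparison among genes of at least 50 CPM (without histone, ribosomal protein and mitochondrial genes, pseudogenes and gene models), and some cycle and stem cell markers whatever their value. A few genes outside this rule are said to be so where they appear. Some genes that the rule names are not reported here. Mouse symbols and GRCm38 positions were looked up by identifier (GENCODE vM21), and promoters came from RefSeq. The alternatives were other depth, mitochondrial and score limits, ranks within each library, other scores and scalings, thinned or fewer barcodes, other pseudocounts and filters, and another reference set.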

Additional observations from a re-analysis of the deposited data

Results flagged for a closer look

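Histone transcripts also appeared in barcodes outside the comparisons, which had under 5000 UMIs or over 20% mitochondrial UMIs. In the young library 1385 such barcodes held the 5 score genes at 676 CPM, and in the aged library 1067 held them at 796 CPM. A count of 0 would allow up to 0.925 and 1.22 CPM at their summed depth. Of these barcodes, 198 young and 179 aged had an H score at or above the lowest score of the top 12%. There are no control samples for this level, and these shallow barcodes were not described further.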

How the results depend on the processing

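The ratio of member shares, aged over young, was 1.01 and fell below 1 with the top 16% (0.964), ranks within each library (0.985) and scores as mean logs (0.958), so its direction depends on the setting. For members against other barcodes, 1007 of 1056 values of the 96 genes followed through the alternatives stayed on their side of 2-fold, and for aged against young members 1047 of 1056. The same 96 genes served both comparisons, and few of them were past 2-fold by age. The second count therefore says little about how stable those few genes are. No paired analysis was possible because each age has 1 library and no value comes from a test. With an H score in the top 8%, members were 7.36% of young and 7.64% of aged kept barcodes, and in the top 16% they were 13.8% and 13.3%. The counts of 113 higher and 50 lower genes became 54 and 17 at a mitochondrial limit of 10%, 62 and 12 at a floor of 50 CPM, and 244 and 82 against barcodes of no class, a reference added after the data were seen. The lower count alone moved to 28 with the top 16%, 31 with scores as mean logs, 17 with a pseudocount of 5 CPM and 77 without a floor. The counts of 19 higher and 20 lower genes by age became 49 and 46 without a floor and 5 and 3 at 50 CPM, and the lower count was 12 with a pseudocount of 5 CPM. The median log2 ratio of histone genes outside the rule, 1.66 young and 1.63 aged, was 1.73 and 1.85 with the top 8%, 1.59 and 1.58 with mean logs, 1.52 and 1.58 with scores on 5000 UMIs per barcode, 0.80 and 0.81 with a pseudocount of 5 CPM and 2.27 and 2.29 over genes of at least 10 CPM. The young median was 1.45 at a mitochondrial limit of 10% and 1.71 with the top 16%, and the aged median was 1.66 without the 5% deepest barcodes and 1.72 against barcodes of no class. Stricter and looser floors change how many genes are compared, and a larger pseudocount shrinks the ratios of low genes. The cause of the other shifts was not tested.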
